A study of Homo sapiens with 12 samples.

Results

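A set of 10 genes of G2 phase and mitosis was followed in U2OS cells, an established human osteosarcoma line. They are CCNA2, CCNB1, CDK1, PLK1, AURKA, CDC20, BUB1, TOP2A, CENPF and KIF11, taken by name as 10 of the 58684 genes with a row in the count table. All 10 had enough counts to be among the 12460 genes tested.

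The RNA came from 4 groups of 3 libraries, 12 in all: Cap IP of cells that stably carry eIF4E-Flag, Cap IP of cells that carry the vector, and the input RNA of each kind of cell. Cap IP is an immunoprecipitation of RNA with an m7G cap, and input is the total RNA before it. The cap is what the translation factor eIF4E binds, and the series asks whether it alters how much of each transcript is capped. The promoter that drives eIF4E-Flag, and whether a stable line is 1 clone, stand in none of the labels. Nor do the labels say whether replicates are separate cultures, so the tests weigh differences against a spread that may be technical. The word culture stands here for an input and a Cap IP library whose titles share a stem.

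A cell enters mitosis when CDK1, bound to cyclins of the A and B types, is switched on, and it leaves mitosis when the anaphase-promoting complex marks those cyclins for destruction. Transcripts of these genes accumulate together late in the cell cycle. Their promoters are known for CCAAT boxes, bound by NF-Y, and for the cell cycle homology region, bound by the MuvB core with its partners MYBL2 and FOXM1. In RNA from a whole culture, fewer cells in G2 or mitosis and less of a transcript per cell cannot be told apart.

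The upstream sequences of 6 of these genes are shown because CCNA2 and PLK1 are the ones that passed a test and because CCNB1 with CDC20, and TOP2A with BUB1, varied most alike between libraries. Each is the 150 bases before the RefSeq start, from the GRCh38.p14 build, read 5′ to 3′ on the strand of the gene. In PLK1 and CCNB1 this start lies inside the gene model of GENCODE. Capitals mark CCAAT or TTTGAA, the core of the cell cycle homology region, or the reverse complements, ATTGG and TTCAAA, of these motifs on the other strand.
CCNA2 (chr4:121823884-121824033, minus strand): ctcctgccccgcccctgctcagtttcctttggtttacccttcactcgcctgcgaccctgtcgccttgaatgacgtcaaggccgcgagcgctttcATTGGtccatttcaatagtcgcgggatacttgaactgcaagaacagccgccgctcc
PLK1 (chr16:23678739-23678888, plus strand): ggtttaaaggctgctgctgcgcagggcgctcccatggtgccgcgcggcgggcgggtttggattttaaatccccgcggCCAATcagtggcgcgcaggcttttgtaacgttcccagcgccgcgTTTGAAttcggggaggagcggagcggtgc
CCNB1 (chr5:69167000-69167149, plus strand): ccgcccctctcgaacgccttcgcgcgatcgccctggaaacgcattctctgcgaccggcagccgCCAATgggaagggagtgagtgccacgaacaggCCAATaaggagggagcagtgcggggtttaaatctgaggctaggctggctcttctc
CDC20 (chr1:43358831-43358980, plus strand): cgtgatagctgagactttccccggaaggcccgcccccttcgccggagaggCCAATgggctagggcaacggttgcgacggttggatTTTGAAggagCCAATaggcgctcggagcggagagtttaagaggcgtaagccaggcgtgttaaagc
TOP2A (chr17:40417897-40418046, minus strand): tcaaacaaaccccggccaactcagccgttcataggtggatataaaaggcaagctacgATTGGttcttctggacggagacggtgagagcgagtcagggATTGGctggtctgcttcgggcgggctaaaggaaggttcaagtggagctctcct
BUB1 (chr2:110678064-110678213, minus strand): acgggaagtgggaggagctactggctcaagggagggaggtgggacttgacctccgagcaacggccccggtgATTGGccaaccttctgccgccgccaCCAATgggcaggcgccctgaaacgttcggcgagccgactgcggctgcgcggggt

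Both motifs were searched on both strands in the 250 bases before the start, and no match overlapped another in these genes. CCAAT was found in 10 of 10 promoters of 9 of the genes (CDK1 has a pair of promoters, and AURKA is not shown here), against 32% of all 35116 RefSeq promoters. TTTGAA was found in 6 of 10, against 13.3%, and both motifs together in 6 of 10, against 4.69%. In PLK1 the CCAAT match began 73 bases and the TTTGAA match 29 bases before the start. In CDC20 the CCAAT matches shown began 100 and 55 bases and the TTTGAA match 65 bases before it. CCNA2, CCNB1 and BUB1 had no match to TTTGAA in this window. Only these exact letters were searched, so a variant of the cell cycle homology region would have been missed, and no match does not mean no such region. A match is a description of letters and not of a bound site.

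The libraries held between 1206321 and 1813486 counts, of which these genes took 0.0349% to 0.107%. A single gene had between 4 and 554 counts in a library, and 3 counts stood for 1.19 to 3.15 CPM (TMM-scaled counts relative to library size). EIF4E, the gene carried as eIF4E-Flag, had 15.4, 13.2 and 11.9 CPM in eIF4E input, against 9.70, 4.81 and 6.32 CPM in vector input, a log2 change of 0.98 ± 0.36 (SE) that did not pass although the groups did not overlap (edgeR adjusted p = 0.231). Of the markers of bone and mesenchyme, COL1A1 had a mean of 891 counts per library, SPARC 470.5 and VIM 1289, RUNX2 had 14.8 and ALPL 4.92, COL1A2 had 2 counts in all 12 libraries, and TWIST1 had 0. Blood markers were at 8 counts (CD3E), 2 (PTPRC) and 0 (HBB) over the 12 libraries. The epithelial keratin KRT8 had a mean of 4228 counts per library, CDH1 15.6 and EPCAM 4.08. Of the neuronal markers, RBFOX3 had a mean of 24.3 counts, SNAP25 7.42 and SYP 5.17. Per library, MT-ND6 averaged 6805 counts. MT-CO1 and MT-ND5, which lie on the other mitochondrial strand, averaged 1304 and 11730, so these rows do not point 1 way. VIM-AS1 averaged 17370 and VIM 1289. No source used here says how strand was handled in counting. Which RNA a row counts is thus uncertain for every gene, also for those with no annotated exons opposite.

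Among these genes, CCNA2 and PLK1 had exons of another gene opposite to their own, and the other 8 had none (GENCODE 44). CCNA2 lies at chr4:121816444-121823883 on the minus strand, and the last exon blocks of EXOSC9, a subunit of the RNA exosome, overlap 254 bp of its 3′ end, 9.24% of its exon length. PLK1 lies at chr16:23677656-23690367 on the plus strand and has 12.8% of its exon length opposite to ERN2 (58 bp) and to a long noncoding RNA gene (553 bp). CDK1 lies at chr10:60778331-60794852, CCNB1 at chr5:69167135-69178245, CDC20 at chr1:43358981-43363203, and AURKA at chr20:56369389-56392337. BUB1 lies at chr2:110637528-110678063, TOP2A at chr17:40388525-40417896, CENPF at chr1:214603185-214664574, and KIF11 at chr10:92574105-92655395.

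**Figure D1:**
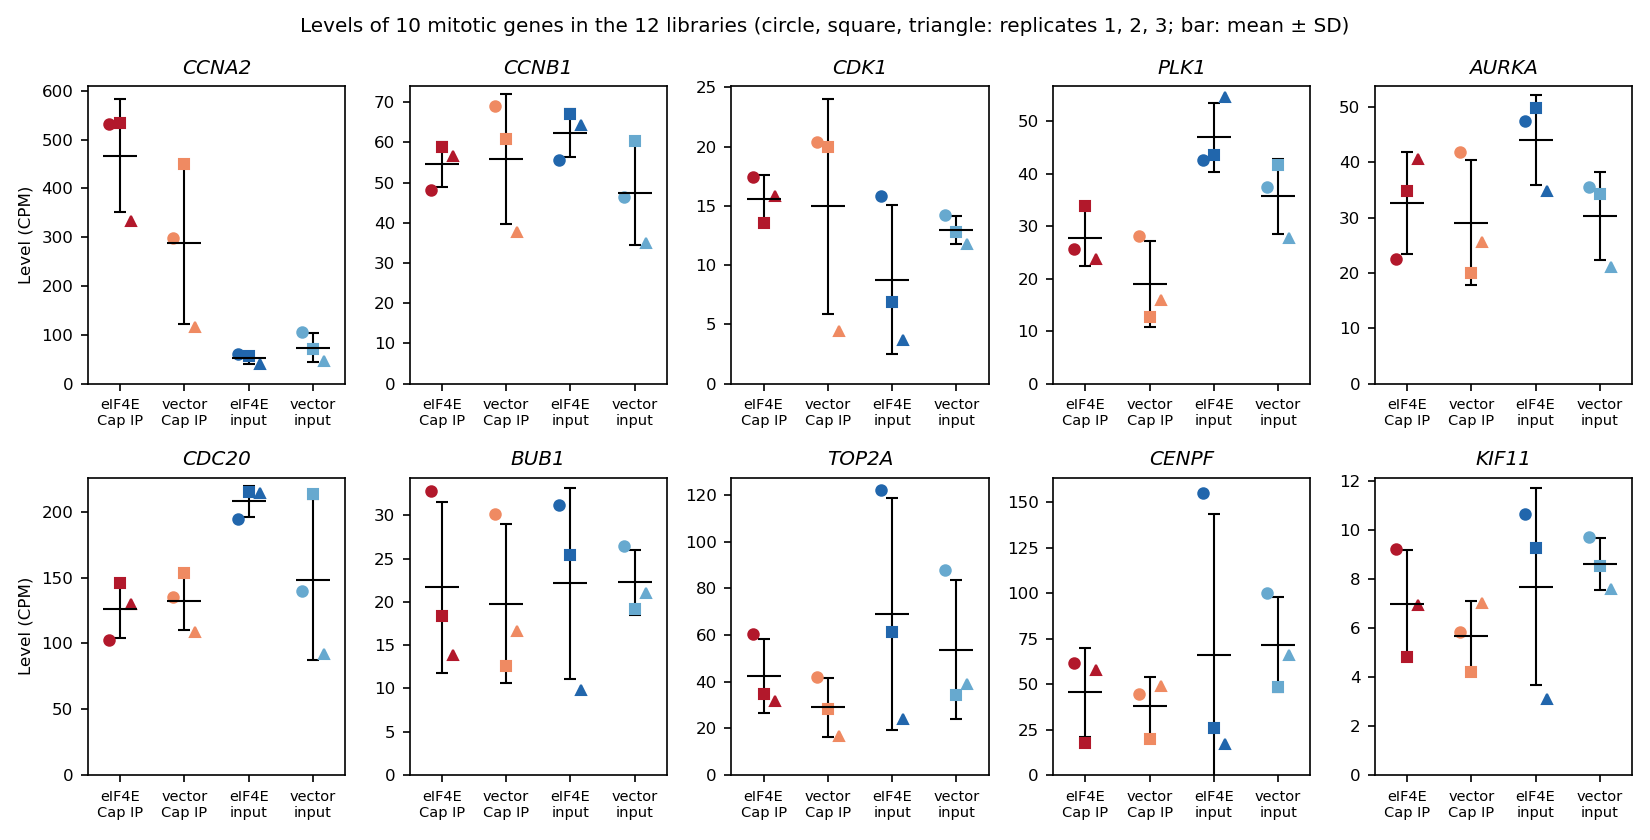
Level of each of the 10 genes in CPM (y axis, from 0, a scale of its own in each panel) in eIF4E Cap IP, vector Cap IP, eIF4E input and vector input (x axis), with 1 symbol per replicate and a bar for the mean ± SD (n = 3); the lower error bar of CENPF in eIF4E input is cut at 0. CCNA2 lies between 333 and 535 CPM in eIF4E Cap IP and between 39.5 and 60.1 CPM in eIF4E input, while most other genes overlap between Cap IP and input.

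Levels in input differed widely between the genes. Per kb of exon, CDC20, the activator of the anaphase-promoting complex, was highest in input with a mean of 103 CPM per kb in eIF4E cells and 73.8 in vector cells. CCNB1, the B-type cyclin that binds CDK1, had 25.6 in eIF4E cells and 19.4 in vector cells, and CCNA2, the A-type cyclin, 18.9 in eIF4E cells and 26.7 in vector cells. In eIF4E input every library of CCNB1 was above every library of CCNA2, and in vector input the levels of these genes overlapped, with CCNA2 above CCNB1 in each of the 3 libraries. KIF11, the plus-end motor that pushes spindle poles apart, was lowest with 1.45 in eIF4E cells and 1.62 in vector cells. In Cap IP, CCNA2 stood first with 170 CPM per kb in eIF4E cells and 105 in vector cells, above CDC20 with 62.7 and 65.8.

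The first comparison was eIF4E against vector in input, which asks whether the levels of these transcripts differ between the cells. No gene of the 10 passed in either direction (edgeR adjusted p from 0.476 to 0.994), where 0.104% of all genes tested were called higher and 0.425% lower, 0.53% in all. Their median change was 0.20 on the log2 scale, beside -0.049 over all genes, and every 95% interval held 0. No call appeared under any of 295 alternatives for eIF4E against vector in input or Cap IP.

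The kinases and their activators ranged from 0.55 to -0.52 on the log2 scale. PLK1, a kinase that drives mitotic entry and spindle assembly, had 42.7, 43.5 and 54.5 CPM in eIF4E input, against 37.5, 41.7 and 27.8 CPM in vector input. It was the only gene of the 10 whose groups did not overlap in input, all higher in eIF4E cells (all genes: 8.45%), and none was all lower (all genes: 10.2%); its change of 0.40 ± 0.31 (SE) did not pass (edgeR adjusted p = 0.594). AURKA, the kinase of centrosomes and spindle poles, averaged 44.03 ± 8.09 CPM in eIF4E input and 30.3 ± 8.00 CPM in vector input (SD, n = 3 each), a log2 change of 0.55 with a 95% interval from -0.13 to 1.23. CDK1, the kinase at the centre of mitotic entry, had 15.8, 6.84 and 3.63 CPM in eIF4E input, against 14.2, 12.8 and 11.8 CPM in vector input. The interval of CDK1 ran from -1.55 to 0.51.

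CDC20 had 194.5, 215 and 214 CPM in eIF4E input, against 140, 214 and 91.9 CPM in vector input, a log2 change of 0.49 (95% interval -0.12 to 1.09). The vector libraries spread over 2.33-fold for CDC20, and the eIF4E libraries over 1.11-fold. CCNA2 had 60.1, 56.2 and 39.5 CPM in eIF4E input, against 105, 70.0 and 45.5 CPM in vector input, and its groups overlapped (log2 change -0.49, interval -1.32 to 0.34).

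The widest spread within a group was that of CENPF, a large kinetochore-associated protein. It had 155, 25.9 and 17.1 CPM in eIF4E input, against 100, 48.6 and 66.2 CPM in vector input. Replicate 1 of eIF4E input was thus far above the other 2. TOP2A, the topoisomerase that untangles sister chromatids, had 122, 61.1 and 23.9 CPM in eIF4E input, against 87.9, 34.2 and 38.8 CPM in vector input, again with replicate 1 highest. In eIF4E input, replicate 1 over replicate 3 was 3.09 on the log2 scale for CENPF, 2.29 for TOP2A, 1.80 for CDK1, 1.55 for BUB1 and 1.44 for KIF11. For CCNB1, CDC20 and PLK1 the same ratio was -0.20, -0.14 and -0.34. The median of the same ratio was 0.23 for all genes of 7 kb and over, the class of CENPF, and -0.088 for genes of 5 to 7 kb, the class of TOP2A, BUB1 and KIF11. Without replicate 1 of eIF4E input the change of CENPF between eIF4E and vector input was -1.71 (edgeR adjusted p = 0.0871), against -0.099 with it, and that of TOP2A was -0.31, against 0.38.

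**Figure D2:**
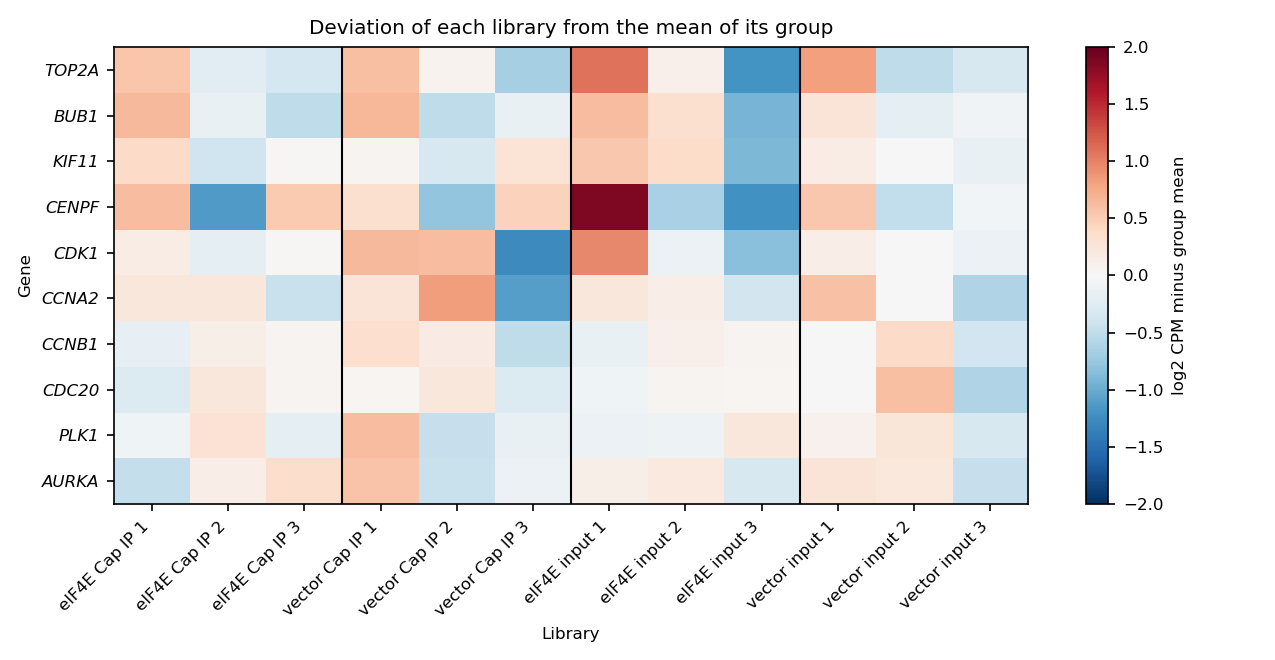
Deviation of each library from the mean of its group on the log2 CPM scale (colour, from blue below to red above), with genes in rows and the 12 libraries in columns, eIF4E Cap IP first. Replicate 1 of eIF4E input is red and replicate 3 blue in the rows of TOP2A, BUB1, KIF11, CENPF and CDK1, with CENPF at 1.87 and -1.22.

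Deviations from the group means were compared between pairs of genes over the 12 libraries, which share depth and the scaling, so the values are descriptions with no test. Pearson's r was highest for CCNB1 with CDC20 (0.849), the cyclin and the activator of the complex that destroys it. It was 0.839 for TOP2A with BUB1, the kinase of the spindle checkpoint, 0.791 for BUB1 with KIF11, 0.789 for CDK1 with TOP2A, and 0.775 for CENPF with KIF11. PLK1 with AURKA gave 0.61. The lowest was CDC20 with CENPF (-0.407). Whether the 10 genes vary as 1 group between libraries was not tested. TOP2A, BUB1 and KIF11 have 5 to 7 kb of exon and CENPF over 7 kb, while CCNB1 and CDC20 have under 3 kb. The part of length in these values was not tested either.

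Next, Cap IP was compared with input in each kind of cell. CCNA2 was called higher in Cap IP in both kinds of cell, and PLK1 lower in vector cells. These tests did not pair the input and Cap IP library of a culture. With the culture as a block, CDC20 and PLK1 were called lower in eIF4E cells, and PLK1, TOP2A and CENPF in vector cells. The share of all genes called lower with this block was not counted. Without the block, 1 of the 10 genes was called higher and 0 lower in eIF4E cells, beside 21.9% and 23.3% of all genes. In vector cells 1 was called higher and 1 lower, beside 18.5% and 21%. In either direction that is 10% of the 10 genes in eIF4E cells, beside 45.1% of all genes, and 20% in vector cells, beside 39.5%, shares that were not tested against each other. The median change of the 10 was -0.31 in eIF4E cells and -0.17 in vector cells, beside -0.13 and -0.045 over all genes.

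CCNA2 had 533, 535 and 333 CPM in eIF4E Cap IP, against 60.1, 56.2 and 39.5 CPM in eIF4E input. The counts behind these were 519, 554 and 336, against 152, 115 and 76. In vector cells CCNA2 had 299, 451 and 117 CPM in Cap IP, against 105, 70.0 and 45.5 CPM in input, from 307, 429 and 183 counts against 162, 131 and 108. All Cap IP libraries were above all input libraries in both kinds of cell, as they were for 25.4% of all genes in eIF4E cells and 22.7% in vector cells. The log2 change was 3.16 ± 0.42 (SE) in eIF4E cells (edgeR adjusted p = 1.11e-05) and 1.98 ± 0.40 in vector cells (edgeR adjusted p = 0.000746). CCNA2 was called higher under each of 15 alternatives in both kinds of cell, with changes between 2.28 and 3.39 in eIF4E cells and between 1.18 and 3.67 in vector cells.

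EXOSC9, opposite to the 3′ end of CCNA2, had 139, 70.5 and 63.5 CPM in eIF4E Cap IP, against 23.7, 34.2 and 15.6 CPM in eIF4E input. In vector cells EXOSC9 had 50.6, 74.6 and 20.4 CPM in Cap IP, against 23.3, 25.1 and 31.2 CPM in input. Its log2 change was 1.88 (edgeR adjusted p = 0.00106) in eIF4E cells and 0.84 (edgeR adjusted p = 0.114) in vector cells. Genes with opposite exons were called higher in Cap IP more often than genes without, at 24% against 6.96% in eIF4E cells and 19.7% against 8.62% in vector cells. They were called lower less often, at 21.6% against 28.9% in eIF4E cells and 19.5% against 22.5% in vector cells. These shares cover the 81.6% of tested genes that could be matched to the annotation. Whether opposite-strand RNA has a part in the CCNA2 counts was not tested.

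**Figure D3:**
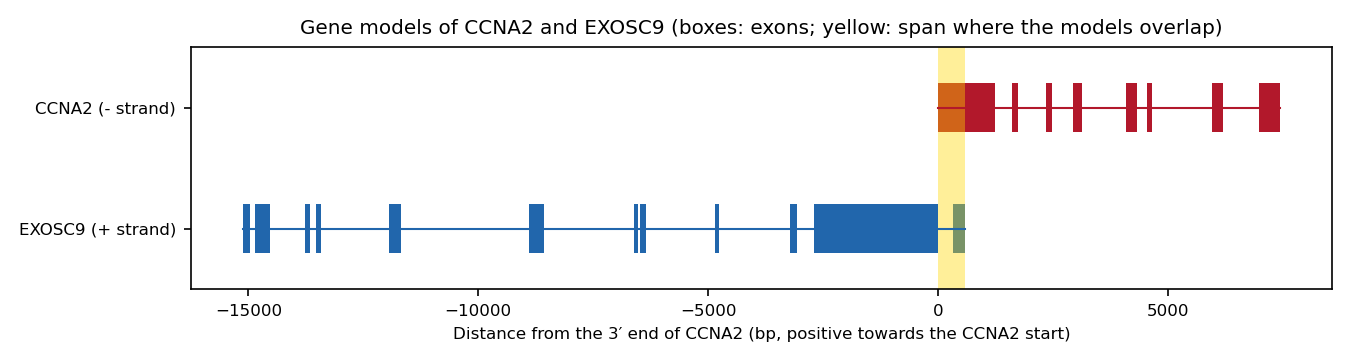
Exons (boxes) of CCNA2 on the minus strand and EXOSC9 on the plus strand, placed by distance in bp from the 3′ end of CCNA2 (x axis); the yellow span marks where the gene models overlap. The exons of both genes share 254 bp there, inside the last exon of CCNA2.

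PLK1 had 28.2, 12.6 and 15.96 CPM in vector Cap IP, against 37.5, 41.7 and 27.8 CPM in vector input, so that 1 Cap IP library lay just above the lowest input library. It fell by 0.91 ± 0.33 (SE) on the log2 scale (edgeR adjusted p = 0.0354). In eIF4E cells PLK1 had 25.7, 33.8 and 23.8 CPM in Cap IP, against 42.7, 43.5 and 54.5 CPM in input. These groups did not overlap (all genes lower without overlap: 29.5%), but the change of -0.75 ± 0.32 did not pass (edgeR adjusted p = 0.0629). With the culture as a block it was called lower. ERN2, which has exons opposite to PLK1, changed by 0.73 in vector cells (edgeR adjusted p = 0.156) and by 0.79 in eIF4E cells (0.107). Whether opposite-strand RNA has a part in the PLK1 counts was not tested.

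The call for PLK1 in vector cells was lost without replicate 1 or 2 of vector input (edgeR adjusted p = 0.0813 and 0.115), without replicate 2 or 3 of vector Cap IP (0.145 and 0.109), with no filter on low counts (0.055) and with only the groups compared (0.0533). With the mitochondrial mRNAs as library sizes it was -0.041 (edgeR adjusted p = 0.976), on a scale where the median of all genes was 0.97. With the culture as a block, which was taken to pair the vector libraries, 3 of the 10 genes were called lower in vector cells. They were PLK1 at -0.92 (edgeR adjusted p = 0.0106), TOP2A at -0.87 (0.0103) and CENPF at -0.91 (0.0161). The share of all genes called lower with this block was not counted, so 3 of 10 cannot be set against it.

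Without the block TOP2A had 41.8, 28.4 and 16.6 CPM in vector Cap IP, against 87.9, 34.2 and 38.8 CPM in vector input, and CENPF 44.7, 20.0 and 49.2 CPM against 100, 48.6 and 66.2 CPM. Both were lower in Cap IP in each of the 3 vector cultures, and in 2 of the 3 eIF4E cultures. PLK1 and KIF11 were also lower in each of the 3 vector cultures, and the share of all genes that were was not counted. Without the block, the changes of TOP2A and CENPF were -0.90 and -0.89 in vector cells (edgeR adjusted p = 0.156 and 0.248). In eIF4E cells they were -0.71 and -0.55. Long genes had lower Cap IP over input than short ones at large. The median was -0.63 in vector cells and -0.65 in eIF4E cells for genes with 7 kb of exon and over, such as CENPF. For genes of 5 to 7 kb, such as TOP2A, it was -0.27 and -0.42. For genes under 3 kb, such as CCNA2, CCNB1, CDC20 and AURKA, it was 0.37 and 0.13. The part of length in these changes was not tested.

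CDC20 had 103, 146 and 130 CPM in eIF4E Cap IP, against 194.5, 215 and 214 CPM in eIF4E input, and the groups did not overlap. Such a separation with Cap IP lower was found for 2 of the 10 genes, CDC20 and PLK1, and for 29.5% of all genes. The change of CDC20, -0.72 ± 0.30, missed the threshold (edgeR adjusted p = 0.0524) and was called lower with DESeq2 (-0.75, DESeq2 adjusted p = 0.0404). It was also called lower by edgeR with the culture as a block. In vector cells CDC20 had 135, 153 and 109 CPM in Cap IP, against 140, 214 and 91.9 CPM in input, a change of -0.17 with an interval from -0.78 to 0.45. CDK1 had 17.4, 13.5 and 15.9 CPM in eIF4E Cap IP, against 15.8, 6.84 and 3.63 CPM in eIF4E input (log2 change 0.79, edgeR adjusted p = 0.218). Without replicate 1 of eIF4E input this became 1.54 (edgeR adjusted p = 0.0343).

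CCNB1, AURKA, BUB1 and KIF11 did not pass in either kind of cell. Their changes lay between -0.43 (AURKA) and -0.046 (BUB1) in eIF4E cells and between -0.55 (KIF11) and 0.23 (CCNB1) in vector cells. KIF11 had 5.83, 4.20 and 7.02 CPM in vector Cap IP, against 9.70, 8.55 and 7.59 CPM in vector input, and was the only one of the 10 whose vector groups did not overlap with Cap IP lower (all genes: 27.2%), from 4 to 18 counts a library. With total counts as library sizes, the median of all genes moved to -0.97 in eIF4E cells and -0.76 in vector cells. On that scale 5 of the 10 genes were called lower in eIF4E cells and 3 in vector cells, with CCNA2 still called higher in both. Calls in either direction were then 6925 of all 12460 genes in eIF4E cells and 5723 in vector cells.

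**Figure D4:**
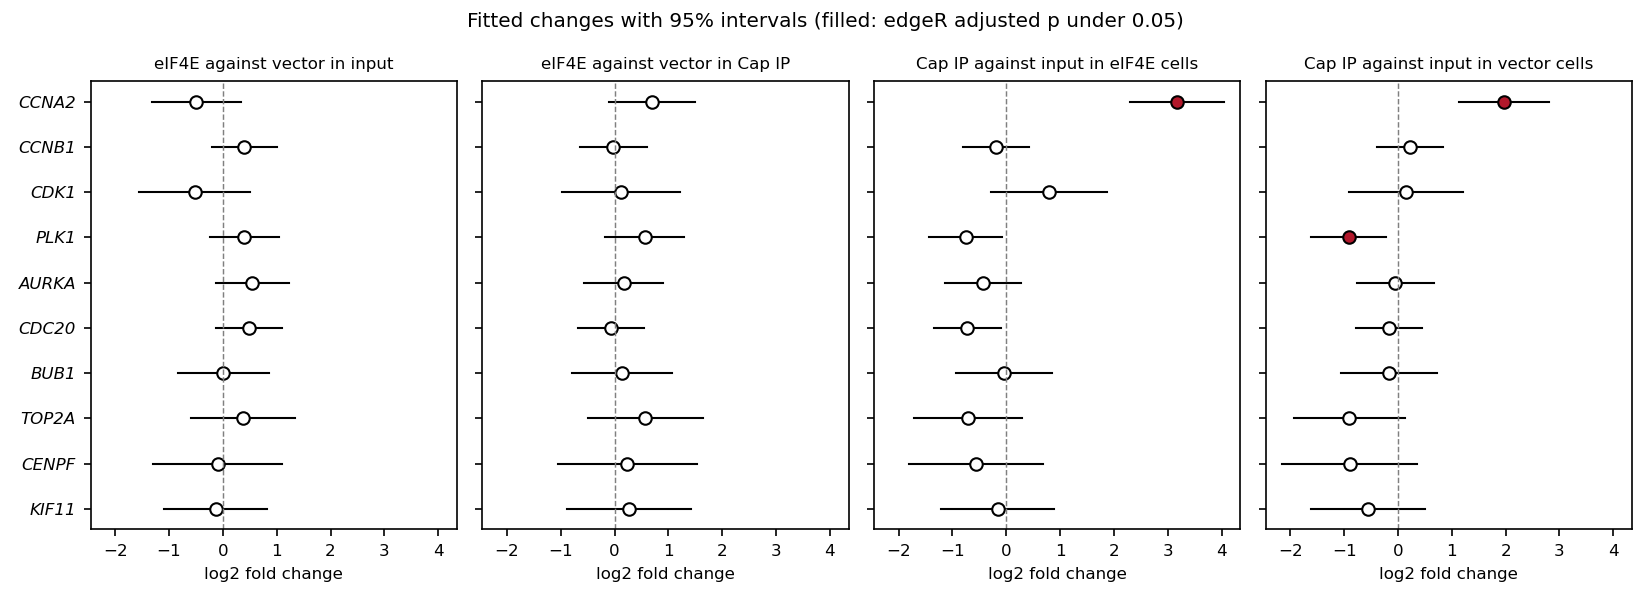
Fitted log2 fold changes (x axis) with 95% intervals for the 10 genes (rows) in 4 comparisons, filled where the edgeR adjusted p was under 0.05. CCNA2 is filled in both Cap IP against input panels, at 3.16 in eIF4E cells and 1.98 in vector cells, PLK1 in vector cells only, and none in the panels of eIF4E against vector.

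The question of the series, whether Cap IP over input differs between eIF4E and vector cells, was tested as the difference of the changes above. No gene passed among the 10 or among all 12460 (0% by edgeR, with 728 at an unadjusted p under 0.05, and 0 by DESeq2). With no filter on low counts 3 genes were called. With the culture as a block, which was taken to pair the vector but not the eIF4E libraries, 51 were. In both cases 0 of the 10 were among them. The difference was 1.19 ± 0.55 (SE) for CCNA2, with a 95% interval from 0.034 to 2.34 (edgeR adjusted p = 0.833), and 1.30 with the culture as a block (edgeR adjusted p = 0.0803). Culture by culture, CCNA2 in Cap IP was 8.86, 9.52 and 8.44 times its input in eIF4E cells, against 2.85, 6.44 and 2.57 times in vector cells. The 3 eIF4E cultures thus lay above the 3 vector cultures. How many of all genes separate in this way was not counted, so this is a description only. EXOSC9 gave ratios of 5.84, 2.06 and 4.07 in eIF4E cells, against 2.17, 2.97 and 0.655 in vector cells. With the mitochondrial mRNAs as library sizes the difference for CCNA2 turned to -0.28 (edgeR adjusted p = 0.923), where the median of all genes was -0.87.

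For the other 9 genes the difference lay between -0.55 (CDC20) and 0.64 (CDK1). Intervals were wide: for CDC20 from -1.42 to 0.31, and for CENPF from -1.42 to 2.10. In CCNB1 the 3 eIF4E cultures had Cap IP over input of 0.865, 0.88 and 0.878, against 1.48, 1.01 and 1.08 in the vector cultures. The difference of -0.42 for CCNB1 did not pass (edgeR adjusted p = 0.896), with an interval from -1.29 to 0.44. The share of all genes whose cultures separate like those of CCNB1 was not counted either.

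**Figure D5:**
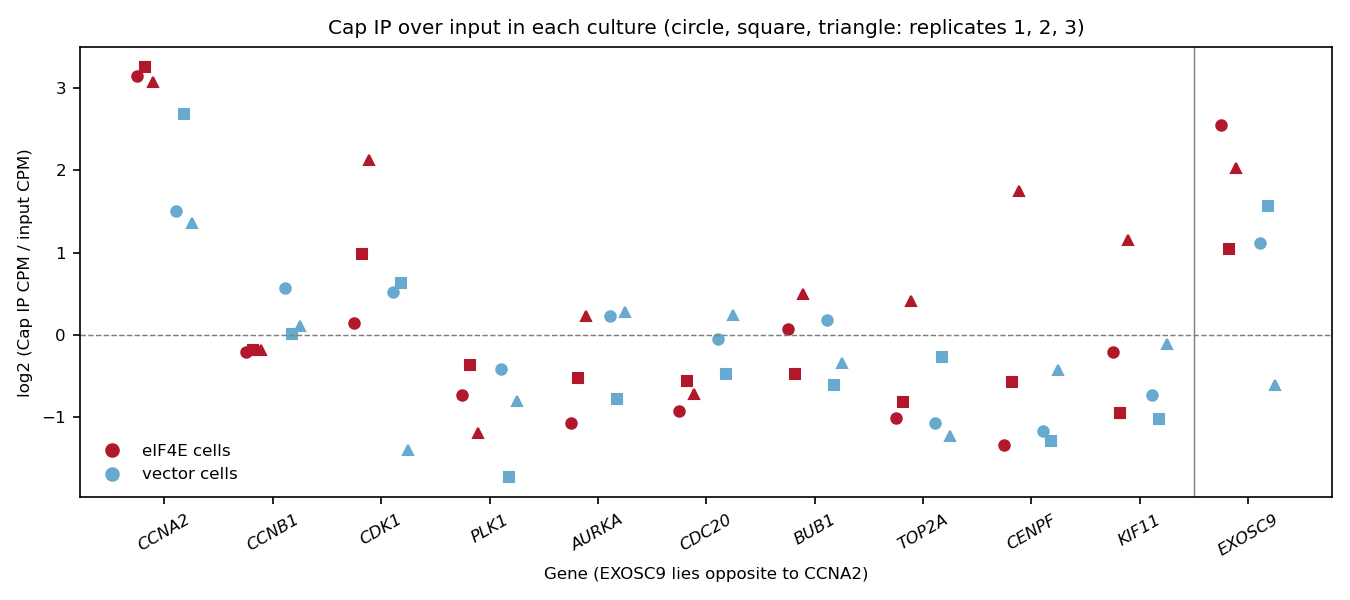
log2 of Cap IP CPM over input CPM (y axis) in each culture for the 10 genes and, right of the line, EXOSC9 (x axis), with eIF4E cells left of vector cells in each gene and 1 symbol per replicate. CCNA2 lies between 3.08 and 3.25 in eIF4E cells and between 1.36 and 2.69 in vector cells.

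In Cap IP, eIF4E against vector cells gave 0 calls among the 10 genes, beside 0.0803% called higher and 0.144% lower, 0.225% of all genes (28 genes, or 114 with the title tag as a block, which pairs the Cap IP libraries and left the 10 genes at 0 calls). The largest change was that of CCNA2, at 0.70 ± 0.39 (edgeR adjusted p = 0.621), and the most negative -0.066 for CDC20. The groups of each of the 10 genes overlapped, where 6.16% of all genes were all higher and 7.39% all lower in eIF4E cells. This comparison shares its libraries with those of Cap IP against input.

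Other genes of G2 and mitosis were taken from 6 lists of 107 genes, of which 93 were tested. None of them passed between eIF4E and vector cells in input or in Cap IP, or in the difference. In Cap IP against input, 16 were called higher and 15 lower in eIF4E cells, and 13 higher and 9 lower in vector cells, with 14 genes called in both. That is 33.3% of the tested list genes in eIF4E cells and 23.7% in vector cells, beside the 45.1% and 39.5% of all genes. By direction, 21.9% of all genes were called higher and 23.3% lower in eIF4E cells, and 18.5% and 21% in vector cells. Of those called higher, 11 of 16 in eIF4E cells and 8 of 13 in vector cells had exons of another gene opposite. Of those called lower, 7 of 15 in eIF4E cells and 5 of 9 in vector cells had them. So did 45 of the 107 list genes, tested or not, and 5211 of all 10166 matched tested genes. Matched genes with opposite exons were called higher more often at large (24% against 6.96% in eIF4E cells, 19.7% against 8.62% in vector cells). The share with opposite exons among all genes called was not counted, so these counts cannot show an excess in the lists. The counts of all these genes carry the same doubt as those of CCNA2. Below, opposite exons are stated for only some of the called genes.

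Among cyclins, CDK1 partners and G2/M kinases, 2 were called higher and 1 lower of 14 in eIF4E cells, and 2 higher and 0 lower in vector cells. Both directions together are 21.4% and 14.3%, beside 45.1% and 39.5% of all genes. MASTL, the Greatwall kinase that keeps phosphatase PP2A off during mitosis, was higher by 1.76 in eIF4E cells (edgeR adjusted p = 0.000546) and by 1.24 in vector cells (0.00746), with ACBD5 and YME1L1 opposite. PLK4, the kinase of centriole duplication, was higher in vector cells (1.46, edgeR adjusted p = 0.0139). CCNB2, a B-type cyclin, was higher in eIF4E cells (0.95, edgeR adjusted p = 0.0156), and CDC25B, a phosphatase that activates CDK1, lower (-1.27, edgeR adjusted p = 0.00339).

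Of the anaphase-promoting complex, the spindle checkpoint and anaphase, 3 genes were called higher and 3 lower of 17 in eIF4E cells, and 2 higher and 1 lower in vector cells. Both directions together are 35.3% and 17.6%, beside 45.1% and 39.5% of all genes. ESPL1, the separase that cuts cohesin at anaphase, had the largest decrease of the list in both. It averaged 2.97 ± 0.959 CPM in eIF4E Cap IP and 56.3 ± 10.8 CPM in eIF4E input, and 4.39 ± 2.54 CPM in vector Cap IP and 36.8 ± 9.43 CPM in vector input (SD, n = 3 each). The changes were -4.20 (edgeR adjusted p = 1.64e-06) and -2.96 (edgeR adjusted p = 2.36e-05), and ESPL1 has no opposite exons. In eIF4E cells FBXO5, an inhibitor of the anaphase-promoting complex, was higher by 1.43, and FZR1, its G1 activator, lower (-0.83). ANAPC1, its largest subunit, was also higher there, by 1.33. In vector cells UBE2S and MAD2L1, an E2 enzyme of the complex and a checkpoint protein, were higher by 1.08 and 1.11.

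Among spindle motors and microtubule proteins, 4 of 21 were called lower and 0 higher in eIF4E cells, and 3 lower and 0 higher in vector cells. These are 19% and 14.3% called lower, no more than the 23.3% and 21% of all genes. KIF18B, a kinesin that shortens astral microtubules, changed by -2.08 in eIF4E cells (edgeR adjusted p = 8e-05) and by -1.12 in vector cells (0.0121). CKAP5, a microtubule polymerase, changed by -1.54 (0.00522) and -1.86 (0.00177). KIFC1 and KIF2C, a minus-end motor and a microtubule depolymerase, were lower in eIF4E cells (-0.92 and -0.95), and KIF4A, a chromosome-bound motor, in vector cells (-1.18).

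Of centromere and kinetochore genes, 6 were called higher and 2 lower of 15 in eIF4E cells, and 4 higher and 0 lower in vector cells. Both directions together are 53.3% and 26.7%, beside 45.1% and 39.5% of all genes, and these shares were not tested against each other. CENPN, which reads the centromeric nucleosome, was higher by 2.28 in eIF4E cells (edgeR adjusted p = 3.1e-05) and by 2.11 in vector cells (9.09e-05). ZWILCH, of the complex that recruits dynein to kinetochores, was higher by 1.87 and 0.87, and CENPT, which links centromeric chromatin to the outer kinetochore, by 1.27 and 1.55. CENPN, ZWILCH and CENPT have opposite exons, those of CMC2, RPL4 and THAP11 among them. CENPH in eIF4E cells (1.14) and CENPA, the centromeric histone, in vector cells (1.34) were higher and have none.

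Of condensin, cohesin and chromosome surface genes, 2 were called higher and 3 lower of 15 in eIF4E cells, and 3 and 3 in vector cells. Both directions together are 33.3% and 40%, beside 45.1% and 39.5% of all genes. MKI67, the coat protein of mitotic chromosomes, averaged 105 ± 23.4 CPM in eIF4E Cap IP and 373 ± 291 CPM in eIF4E input, and 77.5 ± 24.3 CPM in vector Cap IP and 372 ± 92.0 CPM in vector input (SD, n = 3 each). Its changes were -1.83 in eIF4E cells, where the groups overlapped (edgeR adjusted p = 0.00478), and -2.25 in vector cells (edgeR adjusted p = 0.00139), and its exon length of 12845 bp is close to the 12471 bp of CENPF. The condensin subunit NCAPD3 changed by -1.49 and -1.37. SMC4, of the same complexes, was higher by 1.11 and 0.91, and NCAPD2 by 0.76 and 1.07, in eIF4E and vector cells. NCAPH was called lower in eIF4E cells (-0.94), and the cohesin subunit STAG2 higher in vector cells (1.21).

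Of the transcription regulators of these genes, 3 were called higher and 2 lower of 11 in eIF4E cells, and 2 and 2 in vector cells. Both directions together are 45.5% and 36.4%, beside 45.1% and 39.5% of all genes. LIN9, a subunit of the MuvB core, was higher by 2.00 in eIF4E cells (edgeR adjusted p = 0.000154) and by 2.12 in vector cells (0.00015), with no opposite exons. FOXM1 changed by -1.54 (0.00042) and -1.03 (0.0105). MYBL2 was lower in eIF4E cells (-1.15) and RBBP4 higher (1.42). NFYC, a subunit of NF-Y, was higher by 0.80 in eIF4E cells and by 0.90 in vector cells. RBL2, a pocket protein related to RB, was lower in vector cells (-1.95).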

How the data were processed

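The authors deposited 1 table of whole-number read counts, a row for each gene name, not normalized. Per the submitters' processing notes, the authors' tools were STAR 2.5.1b, featureCounts 1.4.5-p1 and DESeq2, on GRCh38.p5. Per the labels, libraries came from a ribosomal RNA depletion kit, read single-end. No source used here gives the annotation or strand setting. Counts were fitted by edgeR 4.0.16 (limma 3.58.1, R 4.3.3), using filterByExpr, TMM scaling and quasi-likelihood tests on 4 group means across the 12 libraries. A gene was called where its p, after Benjamini-Hochberg adjustment across the genes tested, was under 0.05. The SE is the log2 change divided by the root of F. CPM use TMM library sizes, and a prior count of 2 entered log2 deviations. Libraries held 1206321 to 1813486 counts, and floors of 3 counts cover counting error only.

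The 10 genes, the 6 lists and the tests were chosen with earlier results of these data known. In each list, up to 4 called genes with the smallest p were to be named per comparison; ranks beyond 4 are named where the gene is in the first 4 in the other kind of cell. Gene models come from GENCODE 44 on GRCh38, and lengths and opposite exons covered 10166 tested genes, matched by symbol or RefSeq synonym. Promoters come from RefSeq. The tests were tried on simulated data.

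Alternatives were DESeq2 1.42.0 as the test, other library sizes (DESeq2 size factors, total counts, mitochondrial mRNAs, without the 20 most abundant genes), other filters (none, or 50 counts in 3 libraries), only the groups compared, replicate blocks, and each library left out. Residuals of libraries whose titles share a stem correlated at 0.429, 0.271 and 0.44 in vector cells, and residuals of Cap IP libraries whose titles share a tag at 0.203, 0.156 and 0.305. These were taken as pairs, with no cut-off and no correlations of unmatched libraries to set them against. Python 3.11.15, pandas 2.3.3, NumPy 2.4.6 and matplotlib 3.10.9 were used for annotation and figures.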

Additional observations from a re-analysis of the deposited data

Results flagged for a closer look

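CCNB1 was flagged because its Cap IP over input lay below 1 in each of the 3 eIF4E cultures (0.865, 0.88 and 0.878) and above 1 in each of the 3 vector cultures (1.48, 1.01 and 1.08). The difference of -0.42 on the log2 scale, eIF4E minus vector cells, did not pass (edgeR adjusted p = 0.896). How many of all genes would be flagged in this way was not counted. The vector value of 1.01 is close to 1, and with total counts as library sizes the change was -1.02 in eIF4E cells and -0.52 in vector cells, so both lay on 1 side.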

How the results depend on the processing

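CCNA2 kept its call in Cap IP against input in both kinds of cell under each alternative run, and none of the 10 genes was called between eIF4E and vector cells in input or Cap IP under any. Of 630 alternative values of single genes, 542 kept direction and side of the threshold, 59 reversed, 22 gained and 7 lost a call. Alternatives were run for the 10 genes and for counts, not for the list genes. Under alternatives, calls over all genes were counted in either direction together. No share called lower thus stands beside the 10 genes there. Where values moved, the cause was not tested. DESeq2 called 152 genes between eIF4E and vector in input and 71 in Cap IP, and 1 of the 10 lower in eIF4E Cap IP against input (CDC20), as did its size factors in edgeR (1). Total counts gave 11 genes in input, CENPF in input 0.068, 3 of the 10 lower in vector and 5 in eIF4E cells, CCNB1 -0.52 and CDK1 -0.62 in vector cells, and CDK1 -0.086 in eIF4E cells. Mitochondrial mRNAs, which moved the median of all genes to 0.97 in vector cells, gave 7 genes in input, 1553 in eIF4E Cap IP against input, 18 in Cap IP, and 0 of the 10 lower in vector cells. On that scale CENPF and KIF11 were 0.40 and 0.21 in input, CDC20, AURKA, TOP2A, BUB1 and KIF11 1.16, 0.88, 0.38, 0.71 and 0.17 in vector cells, CCNB1 0.068 in eIF4E cells, and the difference for CCNA2 -0.28. In Cap IP, eIF4E against vector, CCNA2, CDK1, AURKA, TOP2A, BUB1, CENPF and KIF11 were then -0.40, -0.82, -0.20, -0.23, -0.35, -0.28 and -0.12. With no filter, 318 genes were called in input, 3 in the difference and 204 in Cap IP, with CENPF 0.013 in input and 2 of the 10 lower in vector and 2 in eIF4E cells. With 50 counts in 3 libraries there were 32 in input, 2949 in vector and 3432 in eIF4E Cap IP against input, 18 in Cap IP, BUB1 -0.015 in input, and 2 of the 10 lower in eIF4E cells. Only the groups compared gave 18 in input and 6 in Cap IP, and 0 of the 10 lower in vector and 2 in eIF4E cells.

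The replicate block by title tag gave 282 genes in input, where the tag was not taken to pair the libraries (residual correlations 0.182, 0.013 and -0.036), with BUB1 at -0.11. It gave 114 in Cap IP, with CCNB1 at 0.0063. The replicate block by culture gave 3 of the 10 lower in vector cells. In eIF4E cells it gave 2 lower, CDC20 and PLK1 (edgeR adjusted p = 0.00835 and 0.0247). Stems were not taken to pair the eIF4E libraries (0.354, 0.08 and 0.111), a judgement made without a cut-off. The value of 0.354 is above the Cap IP values by tag that were taken as pairs (0.203, 0.156 and 0.305), and 0.08 and 0.111 are below them. The block by culture called 51 genes in the difference, with CCNA2 at 1.30 (edgeR adjusted p = 0.0803).

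Leaving out each library in turn gave 7 to 109 genes called in input, 0 to 30 in Cap IP between eIF4E and vector, 0 to 1 of the 10 lower in vector cells and 1 to 2 higher in eIF4E cells. Ranges that crossed 0 in input were -0.31 to 0.93 for TOP2A, -0.31 to 0.36 for BUB1, -1.71 to 0.35 for CENPF and -0.44 to 0.23 for KIF11. In Cap IP against input of vector cells they were -0.17 to 0.64 for CDK1, -0.43 to 0.20 for CDC20, -0.38 to 0.14 for AURKA and -0.57 to 0.053 for BUB1, and of eIF4E cells -0.49 to 0.28 for BUB1, -0.998 to 1.06 for CENPF and -0.51 to 0.15 for KIF11. In Cap IP between eIF4E and vector they were -0.22 to 0.18 for CCNB1, -0.34 to 0.47 for CDK1, -0.16 to 0.094 for CDC20, -0.0051 to 0.52 for AURKA, -0.26 to 0.56 for BUB1 and -0.032 to 0.65 for CENPF. Depth limits KIF11 and CDK1 most, with as few as 4 and 7 counts in a library.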
